A study of Homo sapiens with 7 samples.

Results

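The comparison described here is of SKOV3 cells with CtBP2 knocked down against SKOV3 cells with a scramble control, and its members are 4 of the 7 arrays in the series, chosen by their sample titles. SKOV3 is an established human ovarian carcinoma cell line, labelled serous ovarian cancer by the submitters. The scramble group holds 2 arrays (controls 1 and 2) of cells that carry a lentivirus with a scrambled sequence. The CtBP2 knockdown group holds 2 arrays (knockdown 1 and 2) of cells that carry a lentivirus against CtBP2. All cells were stable lines kept in medium with puromycin, so infection and selection are shared by every group, and the labels say the knockdown was checked by western blot. The remaining 3 arrays are labelled CtBP1 knockdown and enter here only through the shared estimate of the spread and as a second set of arrays to compare with. Each array comes from a stable clone. The labels do not say whether clones were grown as separate cultures, so the p-values rest on how far these arrays differ from one another, part of which may be technical. Whole-transcript RNA levels were read on Affymetrix Human Gene 1.1 ST arrays and deposited as log2 signals, in which a difference of 1 is a doubling. All 17958 genes of the series that had a transcript cluster with exactly 1 gene symbol were compared.

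CtBP2 is a transcriptional co-repressor. It does not recognise a DNA sequence of its own. DNA-binding proteins such as ZEB1, KLF family members and TCF factors, and cofactors such as the FOG protein ZFPM2, recruit CtBP2 through short motifs. CtBP2 brings in histone deacetylases, histone methyltransferases and the histone demethylase KDM1A. It binds NADH, which links its activity to the metabolic state of the cell, and it forms dimers with its close relative CtBP1. In epithelial tumours CtBP proteins are known for repressing E-cadherin (CDH1), pro-apoptotic genes such as BAX, and BRCA1.

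The controls did not resemble each other as closely as the knockdown arrays did. Over all genes, scramble control 1 correlated with the other 6 arrays at r between 0.93 and 0.94, scramble control 2 with the arrays other than control 1 at 0.98, and the knockdown arrays with each other at 0.99 (across genes, which are not independent replicates). The median absolute difference was 0.377 log2 units between the controls and 0.117 between the knockdown arrays. The controls were more than 1 log2 unit apart for 2847 genes and the knockdown arrays for 78. The counts of genes are therefore given against both controls and against each alone, and single genes by their value on each array.

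The targeted transcript was lower on both knockdown arrays. CTBP2 read 5.70 on scramble control 1 and 6.14 on control 2, 6.25, 6.31 and 6.27 on the arrays labelled CtBP1 knockdown, but 4.64 and 4.22 on knockdown 1 and 2. The groups did not overlap, and the knockdown mean was 1.49 ± 0.21 log2 units lower (SE; n = 2 against 2), a 2.81-fold difference, which missed the threshold across all genes (limma adjusted p = 0.180). Against control 1 alone CTBP2 was lower by 1.27 (limma adjusted p = 0.0177) and against control 2 alone by 1.71 (limma adjusted p = 0.187). This call and every other one against control 1 alone was lost when either knockdown array was left out or when only the groups compared were fitted. A second, dimmer CTBP2 cluster read 3.40 and 3.70 on the controls and 3.52 and 3.43 on the knockdown arrays, so it did not separate the groups. The paralog CTBP1 read 5.69 and 6.37 on the controls and 6.81 and 6.32 on the knockdown arrays. The 3 arrays with the CtBP1 knockdown label read 5.11, 6.13 and 6.13. They overlapped the controls, so the CTBP1 transcript does not bear out their label, and they are called by it only as a name. The knockdown and scramble CTBP1 groups overlapped, with a difference of 0.53 ± 0.43 (limma adjusted p = 0.60). The arrays measured bulk RNA, so fewer cells with a transcript and less of it per cell cannot be told apart.

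Across the transcriptome, 1 gene passed an adjusted p of 0.05 against both controls (0.00557% of 17958; limma with Benjamini-Hochberg adjustment). It was RNU4-1, a copy of the U4 small nuclear RNA of the spliceosome, and it was higher. No gene passed in the lower direction. At an unadjusted p of 0.05 the same limma fit marked 1827 genes (10.2%), of which 1291 were higher (7.19%) and 536 lower (2.98%). All 1827 had groups that did not overlap. Non-overlapping groups alone were common: both knockdown arrays lay above both controls for 3461 genes (19.3%) and below both for 3894 (21.7%). These shares depended on how bright a gene was. With genes ranked by mean level and divided into 4 sets of equal size, in the brightest set 31.3% were higher without overlap and 8.91% lower, while in the dimmest set 2.52% were higher and 43.3% lower. In the brightest set the median gene was 0.67 log2 units higher than on control 1 and 0.06 lower than on control 2. In the dimmest set it was 0.24 lower than on control 1 and 0.06 lower than on control 2. These medians thus tilted with brightness against control 1 but not against control 2.

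A rule of size gave a shorter list. Both knockdown arrays lay at least 1 log2 unit (2-fold) beyond both controls for 143 genes (0.796%), 127 of them higher (0.707%) and 16 lower (0.0891%). Of the 143, 138 had an unadjusted limma p under 0.05, against 10.2% of all genes, and 39 an adjusted p under 0.2. The same arrays chose these genes, so their p-values are no separate support for the list. The higher genes held 12 replication-dependent histones, 9 small nucleolar or Cajal body RNAs, 8 cytosolic ribosomal proteins, 5 members each of the interleukin-1 and metallothionein lists, 4 small nuclear RNAs and 3 mitochondrial ribosomal proteins. The brightest set of genes held 61 of the 127 and 8 of the 16, and the dimmest set held 0 of either. The 16 lower genes were SPP1, ANKRD20A8P, IFITM1, AHNAK2, LOC100128288, KLF7, ZFPM2, LPAR1, GULP1, CREBRF, CACNA2D1, EGR1, CTBP2 itself, SLC17A8, MBOAT1 and PROS1.

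**Figure D1:**
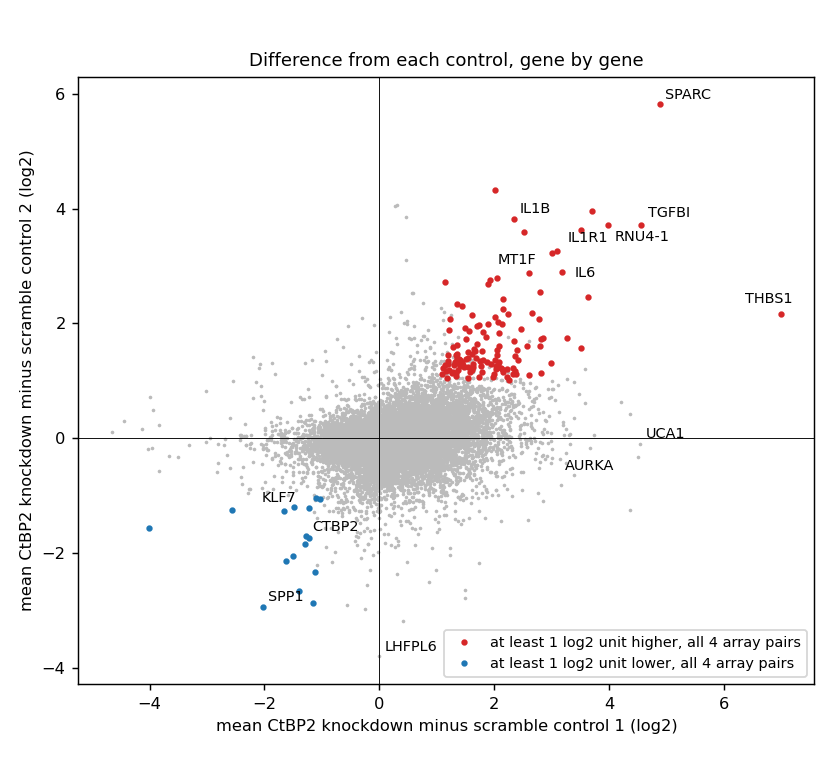
Difference of each gene from scramble control 1 (x axis) and from scramble control 2 (y axis), both as mean CtBP2 knockdown minus control in log2 units; each point is a gene. Red points are the 127 genes at least 1 log2 unit higher on both knockdown arrays than on both controls, blue points the 16 at least 1 lower; the cloud is wider along the control 1 axis, and AURKA and UCA1 lie far along it while near 0 on the other.

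Small nuclear RNAs included the gene that passed the test. RNU4-1 read 2.52 and 2.79 on the controls, 3.81, 3.53 and 4.09 on the arrays labelled CtBP1 knockdown, compared with 6.35 and 6.66 under CtBP2 knockdown. It rose by 3.85 ± 0.23 log2 units, 14.4-fold (limma adjusted p = 0.0491), by 3.98 against control 1 alone (limma adjusted p = 0.0065) and by 3.72 against control 2 alone, where the adjusted p was 0.180. The call against both controls sat at the threshold: it was lost without control 1 (limma adjusted p = 0.180), without knockdown 1 (0.832) or 2 (0.605), and without any of the arrays labelled CtBP1 knockdown (0.133 to 0.231), while without control 2 it held. Its close copy RNU4-2 read 1.96 and 2.20 on the controls and 4.58 and 4.92 on the knockdown arrays. RNU5D-1, a variant of the U5 RNA that holds the exons during splicing, read 5.29 and 4.22 against 7.37 and 8.25. RNU5B-1 read 3.53 and 2.67 against 4.86 and 4.65. Against 19.3% above and 21.7% below over all genes, 9 of 13 small nuclear RNAs lay above both controls and 1 below (RNU6-501P). Their median difference was 0.61 from control 1 and 1.74 from control 2, where the median of all genes was 0 and -0.03. Copies of these genes are nearly identical, so probes may read several of them, and this class was drawn up by symbol after values had been seen. The 204 small nucleolar and Cajal body RNAs, which guide chemical modification of other RNAs, were drawn up in the same way. Of them 57 lay above both controls (27.9%) and 46 below (22.5%), with a median of -0.15 against control 1 and 0.23 against control 2. At an unadjusted limma p under 0.05, 23 of the 204 were higher and 1 lower, against 7.19% and 2.98% of all genes. Past the rule of size 9 were higher and none lower, against 0.707% and 0.0891% of all genes.

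The other genes that led the higher side code for secreted and cell-surface proteins, enzymes, a histone and a respiratory subunit, and none of them passed the test against both controls. SPARC, a collagen-binding matrix glycoprotein, read 3.00 and 2.07 on the controls and 8.06 and 7.71 on the knockdown arrays, the widest gap between the groups of any gene (4.71 at its smallest). Its mean difference was 5.35 ± 1.25 (limma adjusted p = 0.325), 4.88 against control 1 alone (0.0953) and 5.81 against control 2 alone (0.349), with the arrays labelled CtBP1 knockdown scattered between 2.13 and 6.22. CYP24A1, the enzyme that inactivates vitamin D, read 2.37 and 2.10 against 6.32 and 5.81, and the arrays labelled CtBP1 knockdown ran from 2.47 to 5.98. CA2, carbonic anhydrase II, read 2.95 and 2.84 against 6.21 and 6.71, above every other array of the series. COX7B, a subunit of cytochrome c oxidase, read 1.57 and 2.75 against 5.09 and 5.34. AFAP1L2, an adaptor of the SRC kinase, read 3.10 and 3.15 against 5.16 and 5.18, with differences of 2.07 and 2.02 from controls 1 and 2. H2BC3, a replication-dependent histone H2B, read 4.35 and 4.84 against 7.22 and 6.81, while the arrays labelled CtBP1 knockdown stayed between 4.19 and 4.82. AFAP1L2 and H2BC3 had limma adjusted p-values of 0.180 and differed from both controls to a similar extent.

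**Figure D2:**
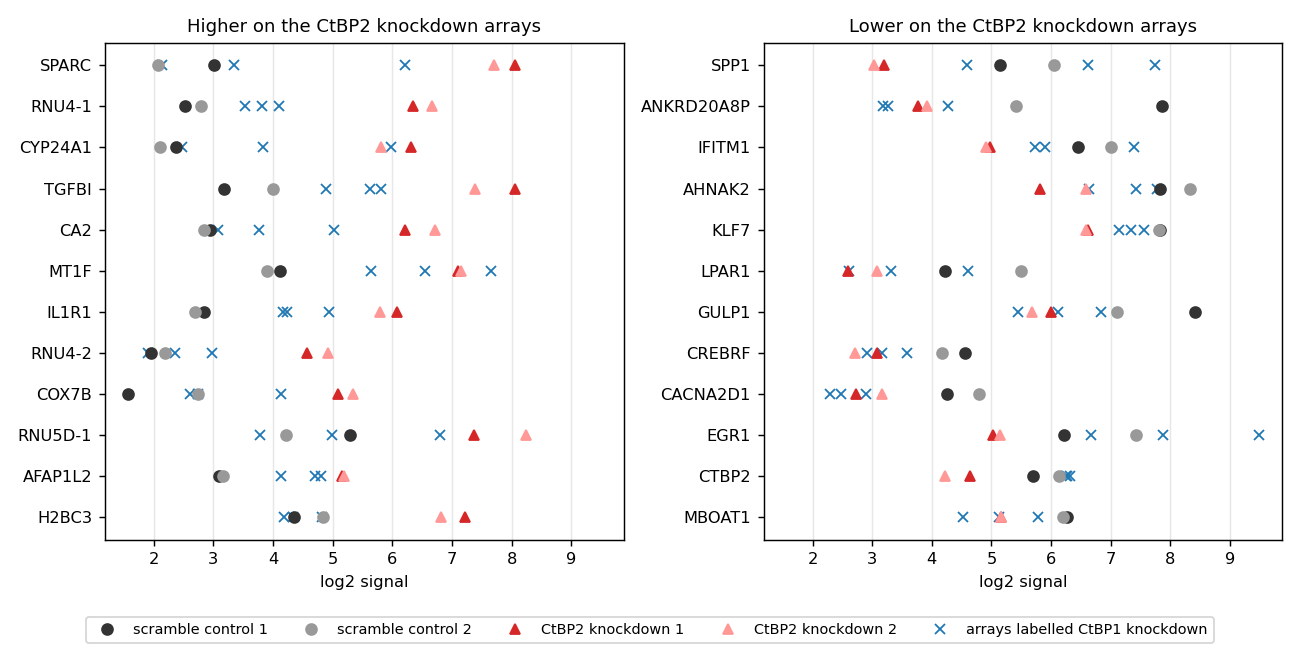
Log2 signal on every array of the 12 genes with the widest gap between the CtBP2 knockdown and scramble arrays in each direction. Circles are the controls, triangles the CtBP2 knockdown arrays and crosses the arrays labelled CtBP1 knockdown; SPARC runs from 2.07 on control 2 to 8.06 on knockdown 1, and the crosses lie between the groups for TGFBI and IL1R1 but beside the controls for H2BC3.

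On the lower side, the widest gap was that of SPP1 (osteopontin), a secreted phosphoprotein that binds integrins and CD44. SPP1 read 5.14 and 6.05 on the controls and 3.20 and 3.03 on the knockdown arrays, 2.48 ± 0.97 lower (limma adjusted p = 0.481), 2.02 lower than control 1 alone (0.294) and 2.93 lower than control 2 alone (0.517). The arrays labelled CtBP1 knockdown ran from 4.59 to 7.75. IFITM1, an interferon-induced membrane protein that restricts virus entry, read 6.45 and 7.0 against 4.98 and 4.91. KLF7, a Krüppel-like transcription factor, had the most even values among these genes: 7.83 and 7.81 against 6.62 and 6.58. Its difference was 1.22 ± 0.16 log2 units lower, 2.33-fold (limma adjusted p = 0.180), and the arrays labelled CtBP1 knockdown lay between, at 7.14 to 7.55. EGR1, an immediate-early zinc finger factor, read 6.21 and 7.42 against 5.03 and 5.14. Its levels on the arrays labelled CtBP1 knockdown were 6.66, 7.87 and 9.48, so the CtBP2 knockdown arrays were the lowest of all 7. AHNAK2, a large scaffold protein, read 7.82 and 8.33 against 5.81 and 6.58. LPAR1, a receptor for lysophosphatidic acid, read 4.23 and 5.49 against 2.59 and 3.08. CACNA2D1, a calcium channel subunit, read 4.25 and 4.79 against 2.73 and 3.17, but the arrays labelled CtBP1 knockdown were at 2.29 to 2.90, as low or lower. GULP1, an adaptor in the uptake of dying cells, read 8.41 and 7.10 against 6.0 and 5.69. CREBRF, a regulator of the CREB3 factors, read 4.55 and 4.16 against 3.07 and 2.71. MBOAT1, an enzyme that adds fatty acids to lysophospholipids, read 6.26 and 6.20 against 5.15 and 5.16. ANKRD20A8P, a pseudogene, read 7.85 and 5.41 against 3.77 and 3.93, and most of its difference came from control 1 (4.0 lower) rather than control 2 (1.56 lower).

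The promoter of SPP1 is printed because it was the only one of the windows matched to the 12 lower genes that held CACCTG, the E-box core bound by ZEB1 and SNAI factors that recruit CtBP proteins. The sequence is RefSeq's, build GRCh38.p14, chr4:87975464-87975713, plus strand, the 250 bases before the start. The capitals mark the match, here on the opposite strand.
SPP1: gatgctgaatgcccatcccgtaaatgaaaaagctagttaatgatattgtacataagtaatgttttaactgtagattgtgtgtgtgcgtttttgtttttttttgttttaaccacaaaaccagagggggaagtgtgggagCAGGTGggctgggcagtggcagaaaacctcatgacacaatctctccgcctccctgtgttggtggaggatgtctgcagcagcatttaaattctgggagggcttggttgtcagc
CACCTG was searched on both strands in all 35116 windows of that length, and 17.5% held it. Among the 12 higher genes 6 could be matched, with 9 windows, and none held it. Among the 12 lower genes 10 could be matched, with 23 windows, and 1 held it. Over the genes past the rule of size, 19 of 134 windows of higher genes (14.2%) and 1 of 25 windows of lower genes held it. TGANTCA, the AP-1 site, was in 6.57% of all windows, in none of the 9 and 23 windows, and in 10 of the 134 (7.46%). A match is a run of letters and does not show binding.

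TGF-beta ligands bind paired receptors that phosphorylate SMAD proteins, which switch on matrix genes and their own inhibitors. Of 32 measured members of this list, 13 lay above both controls and 2 below, against 19.3% and 21.7% of all genes, and none passed the test. TGFBI, a matrix protein named for its induction by TGF-beta, read 3.17 and 4.0 on the controls and 8.05 and 7.39 on the knockdown arrays. The arrays labelled CtBP1 knockdown were between, at 4.88 to 5.81. TGFBI was 4.14 ± 0.43 log2 units higher, 17.6-fold (limma adjusted p = 0.160), 4.55 against control 1 alone and 3.72 against control 2 alone. Among the ligands and receptors, TGFB1 read 4.71 and 4.83 against 5.47 and 5.04, INHBA, the activin A subunit, 3.57 and 3.61 against 5.35 and 4.14, and TGFBR2 4.24 and 5.71 against 6.01 and 6.06. Of the SMAD proteins, SMAD2 was higher by 0.37 ± 0.14, the inhibitory SMAD7 higher by 0.48 ± 0.18, and the shared partner SMAD4 lower by 0.38 ± 0.13. PMEPA1, a membrane inhibitor induced by the pathway, read 5.61 and 6.10 against 7.83 and 7.57. THBS1 (thrombospondin-1) depended on the control: it read 3.25 on control 1 but 8.08 on control 2, against 10.65 and 9.85, so it was 7.0 higher than the first and 2.17 higher than the second. The median of the list was 0.51 against control 1 and 0.25 against control 2, and 0.09 and 0.20 when the columns were quantile normalized again.

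Of 51 genes of the wider matrix list, 15 were higher without overlap (29.4%) and 7 lower (13.7%), against 19.3% and 21.7% of all genes. At an unadjusted limma p under 0.05, 7 of the 51 were higher and 1 lower, against 7.19% and 2.98% of all genes. The median was 0.10 against control 1, which turned to -0.02 with renewed quantile normalization, and 0.08 against control 2, which became 0.14. PLAT, the tissue plasminogen activator, read 3.35 and 4.87 against 6.62 on both knockdown arrays, 2.51 ± 0.47 higher. FN1 (fibronectin) read 2.87 and 2.65 against 4.42 and 4.35, and MMP2, a gelatinase, 3.71 and 3.50 against 5.10 and 4.58. LOXL2, a collagen cross-linking enzyme, read 5.16 and 6.27 against 7.26 and 7.31. The membrane protease MMP14 was lower but dim, at 2.50 and 2.40 against 2.11 and 2.12. Of 18 integrins, the receptors for this matrix, 4 were higher and 3 lower without overlap. ITGB3 read 3.79 and 3.42 against 4.89 and 4.56, and ITGA6, a laminin receptor chain, 7.60 and 7.54 against 6.26 and 6.72.

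Interleukin-1 alpha and beta bind IL1R1, which signals through MYD88 and the IRAK kinases to NF-kB, a family of transcription factors that induce cytokines. Of 43 measured members of this list, 15 lay above both controls (34.9%) and 5 below (11.6%), against 19.3% and 21.7% of all genes. Both receptors were among the higher genes. IL1R1 read 2.85 and 2.69 on the controls, 4.93, 4.17 and 4.23 on the arrays labelled CtBP1 knockdown, compared with 6.09 and 5.80 under CtBP2 knockdown, 3.17 ± 0.28 higher (9.01-fold; limma adjusted p = 0.153). IL1R2, the decoy receptor that does not signal, read 3.11 and 2.38 against 5.75 and 4.58. Among the ligands, IL1B read 3.62 and 2.14 against 6.70 and 5.23, with the arrays labelled CtBP1 knockdown no higher than 2.97. IL1A read 7.31 on control 1 and 3.93 on control 2 against 8.17 and 7.38, so it was 0.47 higher than the first and 3.85 higher than the second. IRAK1 read 3.75 and 4.51 against 5.16 and 5.07. NFKB1, the p105 and p50 subunit, had tight groups: 4.77 and 4.84 against 6.16 and 6.12, with the arrays labelled CtBP1 knockdown at 4.85 to 5.08. NFKB1 was 1.34 ± 0.13 higher, 2.52-fold (limma adjusted p = 0.153). RELA, the p65 subunit, read 5.52 and 5.46 against 5.44 and 5.32.

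The cytokines varied more, both between the knockdown arrays and between the controls. IL6 read 3.13 and 3.43 on the controls and 7.27 and 5.38 on the knockdown arrays. The arrays labelled CtBP1 knockdown covered the same range for IL6, at 6.01, 7.27 and 5.38. CXCL8 (interleukin-8) read 6.49 and 3.85 against 7.84 and 6.08, and its groups overlapped. TNF read 4.48 and 2.53 against 5.20 and 4.93. TNFAIP3, an inhibitor of the pathway that NF-kB induces, read 5.99 and 4.16 against 7.02 and 5.70. NFKBIA, the inhibitor that holds NF-kB in the cytoplasm, read 8.62 and 6.52 against 7.60 and 7.64, between the controls. The median over the list was 0.24 against control 1 and 0.56 against control 2. After renewed quantile normalization it was -0.10 against control 1 and 0.52 against control 2, so the direction against control 1 depended on the scaling.

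**Figure D3:**
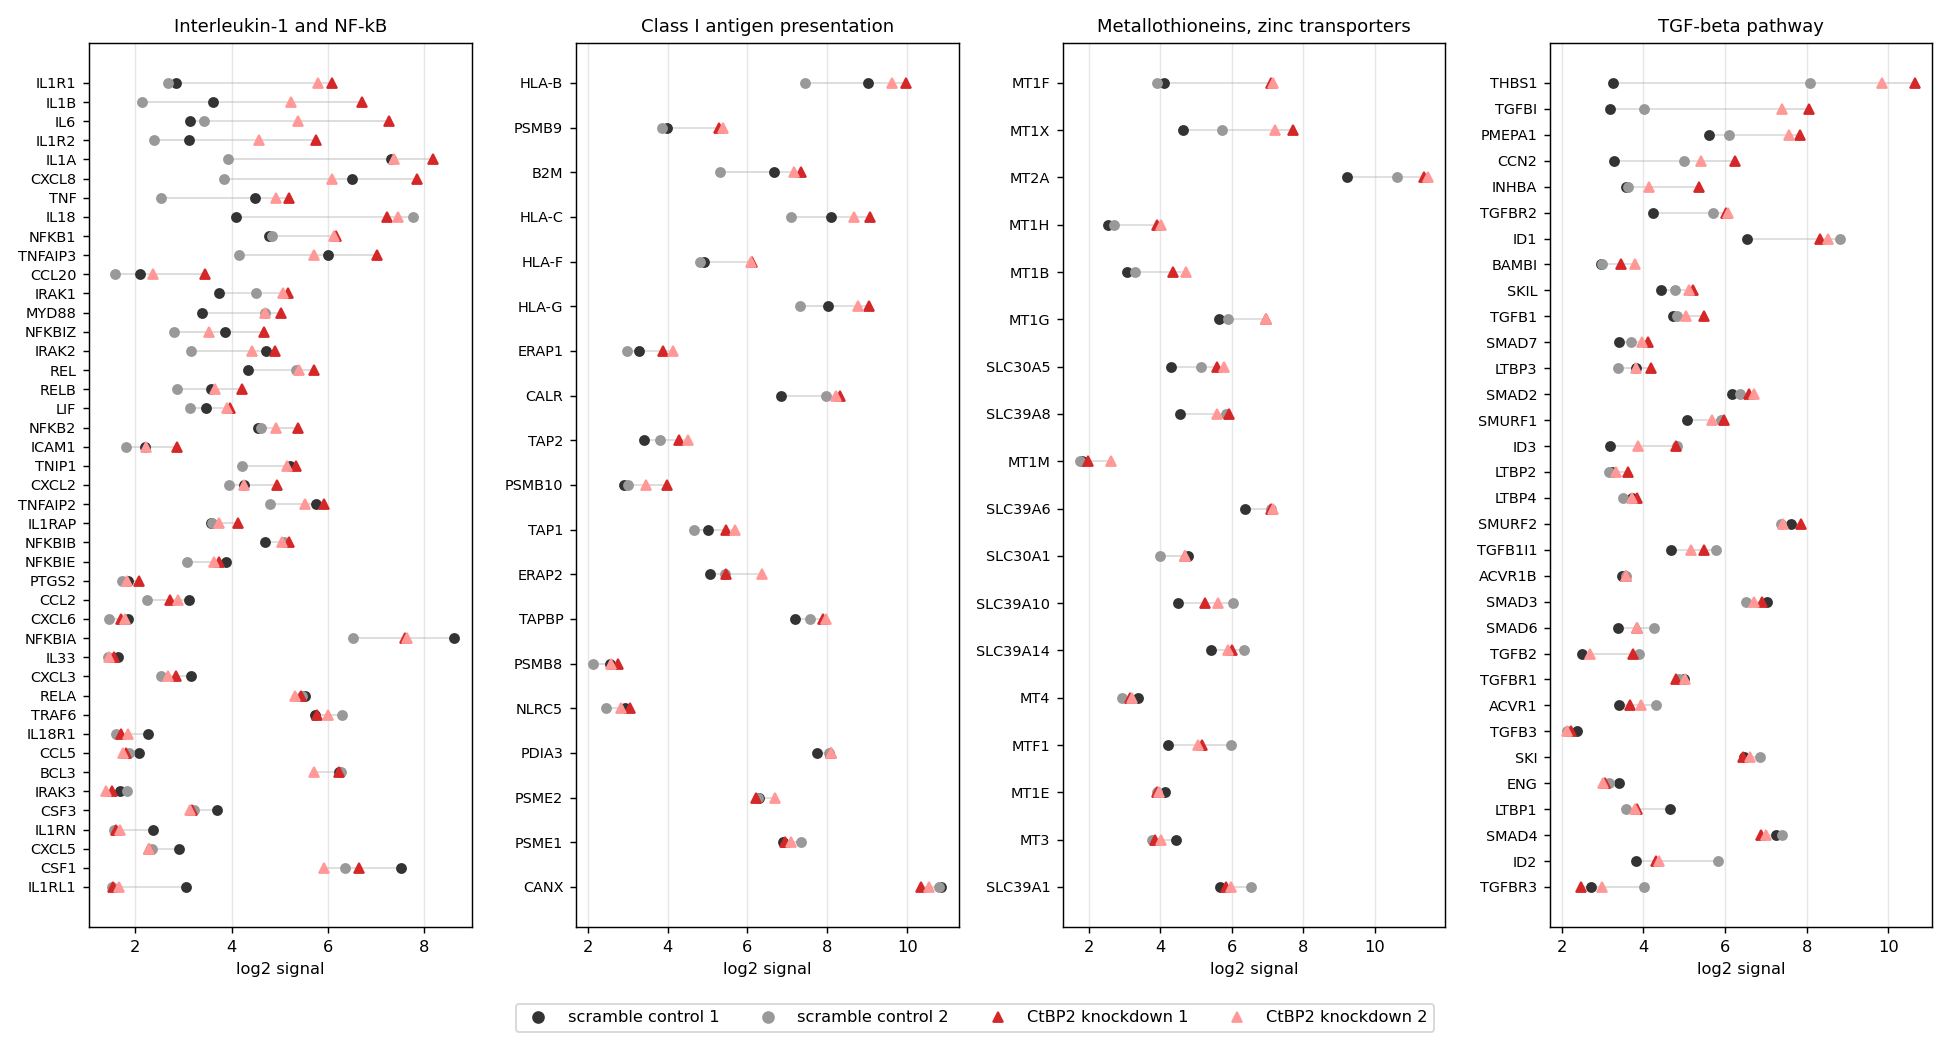
Log2 signal on the 4 arrays compared for every measured member of the interleukin-1 and NF-kB, class I, metallothionein and TGF-beta lists, ordered by mean difference. Circles are the controls and triangles the CtBP2 knockdown arrays; NFKB1, PSMB9 and MT1G have tight, separate groups, while IL1A, CXCL8 and NFKBIA have controls that lie far apart.

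Class I antigen presentation carries peptides cut by the immunoproteasome through the TAP transporter onto HLA molecules with B2M. Of its 19 measured genes, 15 lay above both controls and 1 below, against 19.3% and 21.7% of all genes. The medians were 0.75 against control 1 and 0.60 against control 2 (0.27 and 0.54 after renewed quantile normalization). PSMB9, an immunoproteasome subunit, read 3.99 and 3.87 on the controls, 4.04 to 4.28 on the arrays labelled CtBP1 knockdown, compared with 5.28 and 5.40 under CtBP2 knockdown. It was 1.41 ± 0.14 higher, 2.67-fold (limma adjusted p = 0.158). HLA-F read 4.92 and 4.82 against 6.11 and 6.10. HLA-B read 9.03 and 7.44 against 9.96 and 9.62, and B2M 6.66 and 5.30 against 7.35 and 7.18. For these genes control 2 was the lower control, which made the difference from control 2 the wider of the pair. The transporter genes TAP1 and TAP2 were 0.74 ± 0.29 and 0.80 ± 0.17 higher, and the peptide-trimming ERAP1 0.88 ± 0.24. The chaperone CANX was the member that lay below, at 10.85 and 10.79 against 10.33 and 10.53. The HLA genes are similar in sequence, so their probes may share signal. The interferon-stimulated genes, which often accompany this set, numbered 41. Of these, 10 lay above both controls (24.4%) and 8 below (19.5%), near the shares of all genes. Their median was -0.02 against control 1 and -0.001 against control 2. IFI30, a lysosomal thiol reductase, read 4.16 and 4.70 against 6.16 and 5.90, in contrast to IFITM1.

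Metallothioneins are small cysteine-rich proteins that bind zinc and copper, and the factor MTF1 induces them through metal response elements in their promoters. Of 18 metallothioneins and zinc transporters, 9 lay above both controls and none below, against 19.3% and 21.7% of all genes. MT1F read 4.11 and 3.90 on the controls, 6.55, 5.65 and 7.65 on the arrays labelled CtBP1 knockdown, compared with 7.10 and 7.14 under CtBP2 knockdown. MT1X read 4.65 and 5.73 against 7.71 and 7.21, above the arrays labelled CtBP1 knockdown (5.51 to 5.83). MT2A, the brightest member, read 9.23 and 10.62 against 11.38 and 11.50. MT1G read 5.64 and 5.89 against 6.97 on both knockdown arrays, 1.21 ± 0.14 higher (limma adjusted p = 0.180). MT1H read 2.52 and 2.70 against 3.92 and 4.03, and MT1B 3.05 and 3.30 against 4.36 and 4.72. MT1E (4.12 and 3.91 against 3.91 and 3.96), MT3 (4.43 and 3.76 against 3.85 and 4.01) and MT4 (3.37 and 2.91 against 3.16 and 3.20) did not separate. MTF1 itself was not among the genes that separated. Family members are alike in sequence, and their probes may share signal. The median of the list was 0.91 against control 1 and 0.40 against control 2. After renewed quantile normalization it was 0.41 and 0.38, with 10 in place of 15 of the 18 higher in mean than both controls together.

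Promoters of 3 metallothioneins are printed to set members that were higher, MT1X and MT1H, beside MT4, which was not. Each sequence is the 250 bases before the start on the plus strand, from RefSeq, build GRCh38.p14: chr16:56682220-56682469 for MT1X, chr16:56669564-56669813 for MT1H and chr16:56564823-56565072 for MT4. The capitals mark every match, on either strand and with overlaps counted, to TGCNCNC. That is a looser form of TGCRCNC (R is A or G), the core of the metal response element.
MT1X: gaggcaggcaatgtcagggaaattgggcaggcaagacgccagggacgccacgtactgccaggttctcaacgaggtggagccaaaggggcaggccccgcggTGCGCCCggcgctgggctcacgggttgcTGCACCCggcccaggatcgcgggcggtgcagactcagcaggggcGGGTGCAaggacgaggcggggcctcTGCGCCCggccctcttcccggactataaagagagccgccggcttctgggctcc
MT1H: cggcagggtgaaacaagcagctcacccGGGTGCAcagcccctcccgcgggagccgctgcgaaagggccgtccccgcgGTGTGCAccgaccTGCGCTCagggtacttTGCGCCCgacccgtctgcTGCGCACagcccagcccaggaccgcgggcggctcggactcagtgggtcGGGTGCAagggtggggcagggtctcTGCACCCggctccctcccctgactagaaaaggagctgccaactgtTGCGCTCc
MT4: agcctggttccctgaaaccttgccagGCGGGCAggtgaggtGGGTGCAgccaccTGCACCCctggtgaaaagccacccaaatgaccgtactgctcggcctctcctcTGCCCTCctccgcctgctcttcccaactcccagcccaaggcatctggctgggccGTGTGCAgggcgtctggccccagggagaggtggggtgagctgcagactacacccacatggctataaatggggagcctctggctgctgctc
The windows held 4 matches for MT1X, 8 for MT1H and 5 for MT4. The count of this looser form did not separate the members that were higher from MT4. In the printed windows every match of MT1X and MT1H is also of the stricter form, whereas GCGGGCA and TGCCCTC of MT4 are not. The stricter form was not counted in the other windows, so whether it separates the members was not tested. All 5 metallothionein windows that could be matched (with MT2A at 7 and MT1B at 5) held 3 or more matches, as did 5.85% of all 35116 windows, and 49.1% of all windows held at least 1. The motif was chosen after the values had been seen.

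The co-repressor machinery itself was split. Of 34 genes of the CtBP complex and its DNA-binding or cofactor partners, 7 lay above both controls and 7 below (20.6% each). These shares were near the 19.3% and 21.7% of all genes. The median was 0.12 against control 1 and -0.03 against control 2, and both changed sign with renewed quantile normalization (-0.12 and 0.001). ZFPM2, the FOG cofactor that recruits CtBP to GATA factors, read 3.45 and 3.15 on the controls and 1.98 and 1.93 on the knockdown arrays. The arrays labelled CtBP1 knockdown were as low for ZFPM2, at 1.86 to 2.16. TCF7L2, the Wnt-pathway factor, read 6.15 and 6.22 against 5.67 and 5.75, below every other array (6.69 to 6.99 on those labelled CtBP1 knockdown). ZEB1, the E-box repressor, read 5.90 and 6.52 against 5.62 and 5.78. NRIP1, a nuclear receptor co-repressor that binds CtBP, read 5.76 and 5.43 against 6.47 and 6.26. The enzymes HDAC1, HDAC2 and KDM1A read higher than on both controls, but mainly against control 1: the differences for HDAC1 were 1.59 from control 1 and 0.22 from control 2, and for KDM1A 1.23 and 0.11. Of 11 measured genes known as repressed by CtBP, 5 lay above both controls (45.5%) and none below, against 19.3% and 21.7% of all genes, with medians of 0.38 against control 1 and 0.23 against control 2. BRCA1 read 5.10 and 5.85 against 6.55 and 6.35, and BAX 4.46 and 4.84 against 5.55 and 5.33. CDH1 (E-cadherin) was dim on all 4 arrays, at 2.60 and 2.37 against 3.27 and 2.63. No gene of either list passed the test against both controls.

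Genes of the epithelial and mesenchymal states leaned in no single direction. Of 19 EMT factors and mesenchymal genes, 3 lay above both controls (SPARC, FN1 and VIM) and 4 below (ZEB1, ZEB2, TWIST1 and ACTA2). These shares, 15.8% and 21.1%, were near the 19.3% and 21.7% of all genes. VIM (vimentin) read 8.03 and 9.04 against 9.62 and 9.77, and TWIST1 5.82 and 5.19 against 4.87 and 5.0. Of 37 epithelial junction and keratin genes, 9 were higher (24.3%) and 6 lower (16.2%), also near those of all genes. KRT7 (keratin 7) read 5.65 and 7.59 against 9.64 and 8.67, and EPCAM 5.49 and 4.59 against 6.53 and 6.10. ESRP1, an epithelial splicing regulator, was dim, at 2.00 and 1.58 against 2.81 and 2.83. DSC2, a desmosomal cadherin, read 5.21 and 5.36 against 3.83 and 4.31.

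Adenosine outside the cell is made by NT5E (CD73) from AMP and removed by ADA, which is held at the surface by DPP4. NT5E read 5.05 and 4.81 on the controls, 5.19 to 5.25 on the arrays labelled CtBP1 knockdown, compared with 6.62 and 6.94 under CtBP2 knockdown. It was 1.85 ± 0.16 higher than scramble, 3.61-fold (limma adjusted p = 0.153). ADA read 3.21 and 4.25 against 5.44 and 4.73. DPP4 read 6.83 and 7.95 against 5.37 and 6.10, below all other arrays. The receptor ADORA2B read 3.86 and 3.74 against 4.35 and 4.33. Over the 19 measured genes of this list 6 were higher (31.6%) and 5 lower (26.3%), against 19.3% and 21.7% of all genes. The median was -0.05 against control 1 and 0.05 against control 2.

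Hypoxia genes are induced by HIF1A and EPAS1 when oxygen is low. Of 24 genes of this response, its regulators included, 11 lay above both controls (45.8%) and 2 below (8.33%), against 19.3% and 21.7% of all genes. ANGPTL4, a secreted inhibitor of lipoprotein lipase, read 3.55 and 2.72 against 6.01 and 4.94. BNIP3, a mitophagy receptor, read 7.08 and 7.21 against 8.24 and 8.46, with the arrays labelled CtBP1 knockdown at 6.73 to 7.08. ADM (adrenomedullin) read 4.70 and 4.83 against 5.86 and 5.88. EPAS1 read 4.73 and 4.68 against 6.25 and 5.72, and the arrays labelled CtBP1 knockdown were as high (6.06 to 6.72). NDRG1 went the other way, at 8.63 and 7.04 against 6.31 and 6.19. The median was 0.37 against control 1, which turned to -0.30 with renewed quantile normalization, and 0.27 against control 2, which stayed at 0.26. PFKFB3, a glycolytic regulator that hypoxia induces, read 4.34 and 4.04 against 5.67 and 5.57, 1.43 ± 0.16 higher (limma adjusted p = 0.180), while the glycolysis and pentose phosphate list as a whole had a median of 0.64 against control 1, or 0.11 after renewed quantile normalization, and of -0.08 against control 2.

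Large shares of the ribosomal, histone and respiratory genes lay above both controls, as for class I genes (78.9%) and small nuclear RNAs (69.2%). Over all genes the share was 19.3%. Of 61 cytosolic ribosomal protein genes 55 lay above both (90.2%) and 1 below, with medians of 0.84 against control 1 and 0.62 against control 2. RPL11 read 5.59 and 5.83 on the controls, 5.79 to 6.39 on the arrays labelled CtBP1 knockdown, compared with 7.52 and 7.81 under CtBP2 knockdown. RPL36A read 6.41 and 6.42 against 7.64 and 7.90, and RPS27 7.60 on both controls against 8.94 and 8.89. Of 69 respiratory chain genes 43 lay above (62.3%) and 3 below, with medians of 0.95 and 0.32. COX7A2, which like COX7B belongs to cytochrome c oxidase, read 5.16 and 5.67 against 6.86 and 7.01. Of 49 replication-dependent histones 36 lay above (73.5%) and 2 below, with medians of 1.22 and 0.56. H2AC20 read 5.38 and 5.47 against 7.13 and 7.33, and H2AC13 5.10 and 5.24 against 6.74 and 6.79. Against the arrays labelled CtBP1 knockdown, which use neither control, the medians were 0.71 for ribosomal, 0.33 for respiratory and 0.51 for histone genes. After renewed quantile normalization the medians against control 1 were 0.36 for ribosomal, 0.45 for respiratory and 0.82 for histone genes, and against control 2 they were 0.65, 0.34 and 0.48. None of these genes passed the test against both controls. The lists are bright in part, and 31.3% of the brightest set of genes lay above both controls. Ribosomal protein and histone genes often have copies of almost the same sequence whose signals may be shared, and the part that brightness plays in these shares was not tested.

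How far cell cycle genes on the knockdown arrays lay from scramble depended on the control, most of all for G2/M genes. Of all genes 87.6% lay beyond control 1 on both knockdown arrays (44.7% above, 42.9% below) and 73.9% beyond control 2 (32.1% above, 41.8% below). Of 44 G2/M and mitosis genes, 43 lay above control 1, but 17 lay above control 2 and 17 below it. The median was 1.98 against control 1 and -0.01 against control 2. Above both controls lay 17 of the 44 (38.6%) and below both none, against 19.3% and 21.7% of all genes. AURKA, a mitotic kinase, read 3.29 on control 1 and 7.14 on control 2, and 6.82 and 7.11 on the knockdown arrays. CCNB1 (cyclin B1) read 4.17 and 7.07 against 7.21 and 7.11, and PLK1 5.39 and 8.59 against 8.46 and 8.36. DNA replication genes followed in a lesser degree, with a median of 1.24 against control 1 and 0.22 against control 2. Of these 46 genes, 27 lay above both controls (58.7%) and none below, against 19.3% and 21.7% of all genes. TYMS (thymidylate synthase) read 5.16 and 6.70 against 7.37 and 7.58, and RPA2, a single-strand binding subunit, 3.05 and 3.37 against 4.08 and 4.01. Among G1 regulators, 10 of 22 lay above both controls (45.5%) and none below, against 19.3% and 21.7% of all genes. CCNE1 (cyclin E1) was alike on both controls, 4.11 and 4.23, and read 5.89 and 5.23 on the knockdown arrays, and CCND1 (cyclin D1) read 6.67 and 6.28 against 7.50 and 7.44.

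The sterol and YAP lists also turned on which control was used. Over all genes, 44.7% lay above control 1, 32.1% above control 2, 41.8% below control 2 and 19.3% above both. Of 23 genes of cholesterol synthesis and its regulator SREBP, 20 lay above control 1 and 21 below control 2, and none lay above both; the medians were 1.15 and -0.94. HMGCS1, an early enzyme of the pathway, read 4.80 on control 1, 7.14 on control 2, and 5.49 and 5.47 on the knockdown arrays. INSIG1, the sterol sensor partner, read 4.61 and 6.80 against 4.92 and 4.96. The arrays labelled CtBP1 knockdown lay in the same place, with HMGCS1 at 5.42 to 5.93. Of 22 genes of the YAP and TEAD list, which holds YAP1, WWTR1 and the TEAD factors besides their targets, 20 lay above control 1. Against control 2, 8 lay above and 11 below, and the medians were 0.95 and -0.02. Above both controls lay 7 of the 22 (31.8%) and below both none. ANKRD1 was alike on both controls, 1.97, and read 3.58 and 3.12. CCN1 read 3.25 and 5.65 against 6.29 and 6.34.

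**Figure D4:**
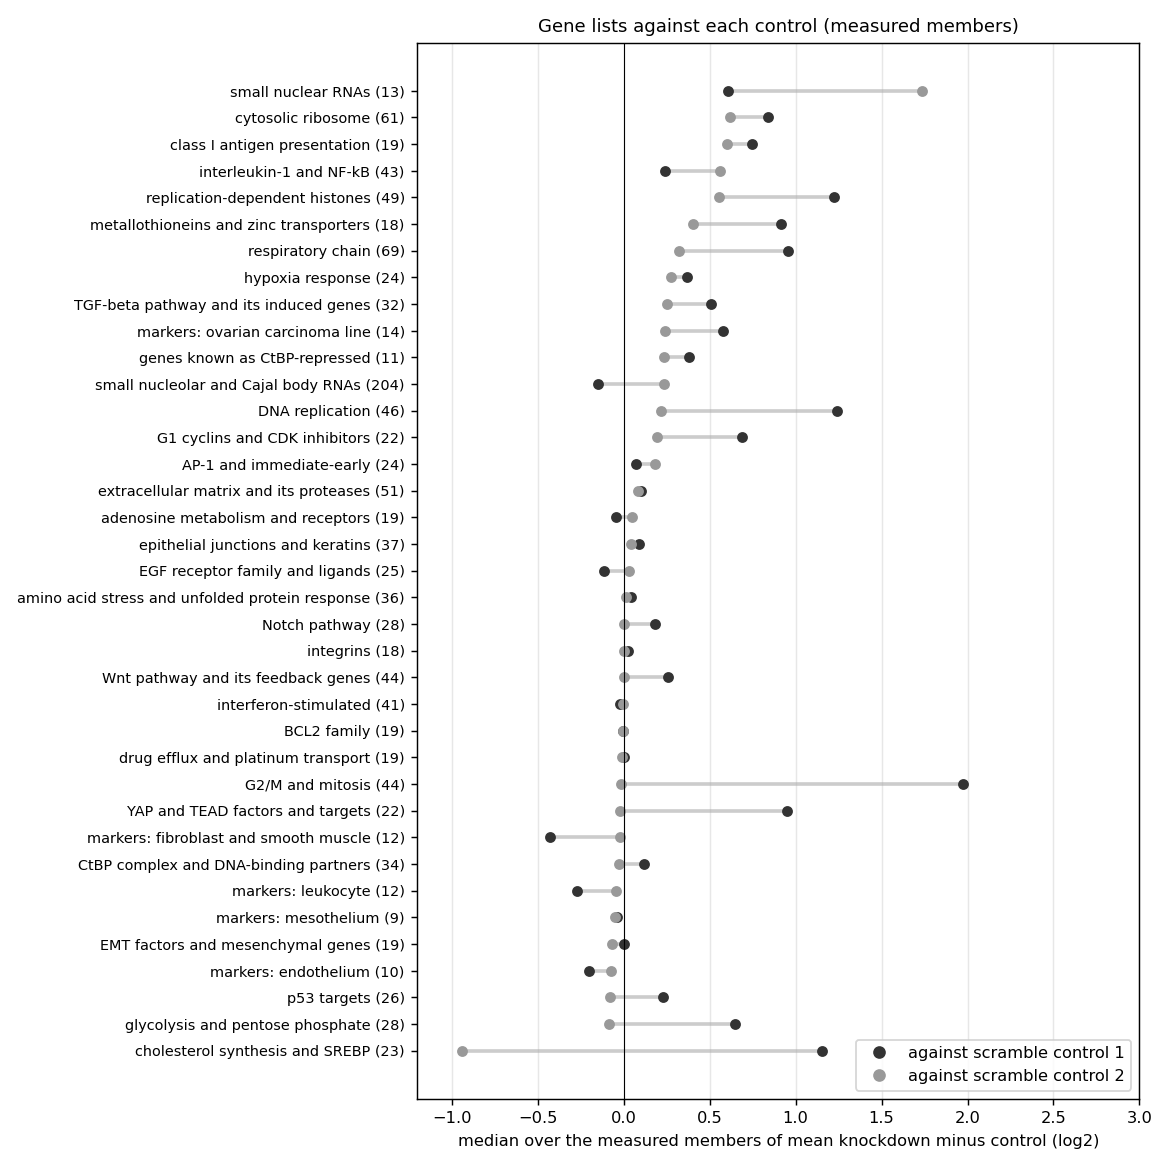
Median difference of each gene list, mean CtBP2 knockdown minus control in log2 units, against scramble control 1 (dark) and scramble control 2 (light); the number of measured members is in brackets. Ribosomal, class I and small nuclear RNA lists are above 0 against both controls, G2/M genes are at 1.98 against control 1 and -0.01 against control 2, and cholesterol genes are on opposite sides of 0.

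Against scramble control 1 alone, 3952 genes passed an adjusted p of 0.05 (22.0%; limma on 6 arrays, with the lone control assumed to vary like the other groups), 2381 higher (13.3%) and 1571 lower (8.75%). That count was 0 when only the groups compared were fitted, 0 with the replicate number as a block, and 0 when either CtBP2 knockdown array was left out. The unadjusted p was under 0.05 for 7124 (39.7%). The rule of size held for 2347 genes (13.1%), 1950 higher and 397 lower. Against scramble control 2 alone, no gene passed (0.0%; smallest limma adjusted p = 0.180), 1862 had an unadjusted p under 0.05 (10.4%), and the rule of size held for 396 genes (2.21%), 222 higher and 174 lower. The 143 genes past the rule in the same direction against both made up 6.09% of those against control 1 and 36.1% of those against control 2, and 26 genes passed it in opposite directions. The rule held against control 1 only for 2178 genes and against control 2 only for 227.

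Several genes marked 1 control and left the knockdown level with the other. UCA1, a long non-coding RNA, read 4.88 on control 1, 9.51 on control 2, and 9.38 and 9.46 on the knockdown arrays. CDKN3, a phosphatase of cyclin-dependent kinases, read 3.40 and 7.08 against 7.16 and 7.12. REXO1L2P, a pseudogene, and ZNF595, a zinc finger gene, were the reverse: REXO1L2P read 7.13 and 3.34 against 2.94 and 3.40, and ZNF595 7.70 and 3.64 against 3.87 and 3.86. The arrays labelled CtBP1 knockdown sat with control 2 for these genes, between 8.65 and 10.57 for UCA1 and between 2.47 and 3.92 for ZNF595. LHFPL6, a tetraspan membrane protein, was the widest gap from control 2 alone, at 4.79 on control 1, 8.58 on control 2 and 4.85 and 4.72 on the knockdown arrays. PRKAR2B, a regulatory subunit of protein kinase A, read 4.63 and 6.55 against 4.41 and 4.63, and DUSP10, a phosphatase of stress-activated kinases, 5.34 and 7.42 against 5.39 and 5.71. GRB10, an adaptor of the insulin receptor, read 4.74 and 2.81 against 5.09 and 4.77, and GNE, which makes sialic acid, 6.10 and 7.76 against 5.72 and 6.10. For LHFPL6 and DUSP10 the arrays labelled CtBP1 knockdown lay between the controls.

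A comparison with the arrays labelled CtBP1 knockdown uses the same knockdown arrays but neither control. No gene passed an adjusted p of 0.05 there (0.0%; smallest limma adjusted p = 0.129), and 1395 genes had an unadjusted p under 0.05 (7.77%), 954 higher (5.31%) and 441 lower (2.46%). CTBP2 was 1.85 ± 0.19 log2 units lower than on those arrays, and its limma adjusted p of 0.129 was the smallest reached. Of the 127 genes higher by the rule of size, 43 were also at least 1 log2 unit above every array labelled CtBP1 knockdown, and 18 were not above all of them. Of the 16 lower genes, 4 lay at least 1 below every such array and 9 did not lie below all of them. SPARC, IL1B and H2BC3 were 3.99, 3.57 and 2.57 higher than the mean of the arrays labelled CtBP1 knockdown. MT1F was 0.51 higher and IL6 0.11 higher, while TNF was 0.88 lower. EGR1 was 2.92 lower and SPP1 3.20 lower. Since the knockdown arrays are shared with the comparison against the controls, these values are not separate evidence on the same genes.

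Signalling and survival lists were spread around 0, and none of their members passed the test against both controls. The counts in this paragraph are to be read against all genes, of which 19.3% lay above both controls and 21.7% below. Of 44 Wnt pathway genes 12 lay above both controls and 10 below, and of 28 Notch pathway genes 7 and 4. Of 24 AP-1 and immediate-early genes 9 lay above and 5 below, and of 25 genes of the EGF receptor family 7 and 7. The AP-1 and immediate-early list had the largest share above among these signalling and survival lists, 37.5%, with 20.8% below. Its median was 0.07 against control 1 and 0.18 against control 2. ROR1, a receptor for Wnt ligands, read 4.51 and 4.50 against 5.44 and 5.19. TGFA, a ligand of the EGF receptor, read 4.21 and 4.48 against 5.35 and 5.73, and ERBB4 read 4.38 and 3.35 against 2.50 and 2.34. ERBB2, which SKOV3 is known to carry in extra copies, read 8.52 and 8.92 against 9.42 and 9.19. IER3, an immediate-early survival gene, read 8.16 and 7.19 against 8.91 and 8.72, opposite to EGR1 in the same list. Of 26 targets of p53, which SKOV3 is known to lack, 5 lay above and 4 below, led by GADD45A (3.72 and 3.82 against 5.69 and 5.05). Of 19 BCL2 family genes 3 lay above and 3 below: the pro-apoptotic BAK1 read 3.33 and 4.56 against 5.45 and 5.15, and BCL2 itself was dim, at 2.69 and 2.60 against 2.14 and 2.15. Of 36 genes of amino acid stress and the unfolded protein response 8 lay above and 8 below. DDIT3 (CHOP) read 7.11 and 5.38 against 4.66 and 4.76, with the arrays labelled CtBP1 knockdown at 4.55 to 4.71, and PHGDH, the first enzyme of serine synthesis, read 6.60 and 5.61 against 4.66 and 4.69. Of 19 drug efflux and platinum transport genes 3 lay above and 4 below, among them GSTP1, a glutathione transferase, at 8.15 and 8.60 against 9.50 and 9.31.

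Cell identity markers fitted the labelled line in part. Of 14 markers of an ovarian carcinoma line, 7 lay above both controls and none below, against 19.3% and 21.7% of all genes. The summed log2 signal of these markers ran from 75.3 to 82.0 on the controls and from 85.2 to 89.7 on the knockdown arrays. SOX17, a Müllerian lineage factor, read 4.12 and 4.27 against 5.84 and 5.49, and PAX8, another, 6.41 and 7.49 against 7.37 and 7.06. WT1 and MUC16 (CA125) were not bright on these arrays: WT1 read 2.20 and 2.21 against 2.12 and 2.21, and MUC16 3.79 and 4.09 against 4.08 and 3.81. Fibroblast and smooth muscle markers were dim, all 12 between 1.25 and 3.32, as were 10 endothelial markers, between 1.46 and 3.18. Their sums ran from 23.7 to 28.6 on the controls and from 23.5 to 23.9 on the knockdown arrays for fibroblasts, and from 21.1 to 22.5 and at 20.1 on both knockdown arrays for endothelium. Of 12 leukocyte markers, 11 stayed between 1.5 and 2.82, PTPRC (CD45) at 1.73 and 1.59 against 1.60 and 1.5 among them. CD68, which lysosomes of many cells contain, read 7.05 and 6.71 against 6.85 and 6.46. Of 9 mesothelial markers 1 lay above both controls and 2 below, with a median of -0.04 against control 1 and -0.05 against control 2. Those below were UPK3B, at 3.99 and 4.58 against 3.49 and 3.71, and ITLN1, at 1.54 and 1.58 against 1.38 and 1.5. The higher one was LRRN4, at 3.64 and 3.54 against 5.51 and 6.06, which the arrays labelled CtBP1 knockdown shared (5.62 to 6.45).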

How the data were processed

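The deposited table holds log2 signals for transcript clusters on each array. Per the submitters' processing notes the authors used Affymetrix Expression Console with RMA, without a version. RMA corrects background, equalises probe distributions across arrays and summarises probes, so a shift common to all genes is removed. For RNA extraction the labels' protocols name a column kit and the series' design text TRIzol, and the 7 source names differ although every cell line field gives SKOV3. The genome build behind the table is not given in the sources used here.

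Of 33297 clusters, 19181 had exactly 1 symbol in GEO's platform annotation, 2055 several, and 12061 were not listed. For the 895 genes with more than 1 cluster the brightest was kept, giving 17958 genes; 17930 symbols were updated through Entrez identifiers with RefSeq and 28 kept. No dim gene was filtered out. Arrays give no read depth, so their number limits the precision. RMA left 972 genes with tied values on both knockdown arrays and 499 on both controls, which can understate a gene's spread.

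Group means were fitted with limma 3.58.1 (lmFit, eBayes) in R 4.3.3 on 7 arrays, or on 6 with 1 control left out. P-values are two-sided, adjusted by Benjamini-Hochberg over all genes at 0.05. The fit was tested on simulated data. Errors after ± are the fit's standard errors. Groups and replicate numbers came from the sample titles. "Above" or "below both controls" means that groups did not overlap. The rule of size asks that both knockdown arrays lie at least 1 log2 unit beyond every control. Gene lists were written from textbook knowledge, apart from the small nuclear RNAs and the small nucleolar and Cajal body RNAs. Those classes were taken by symbol after values had been seen, and mitochondrial ribosomal proteins were also taken by symbol. All lists are described by counts and medians, without a test.

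Named genes are CTBP2, CTBP1, each gene past the threshold, the 12 per direction with the widest gap between groups among genes brighter than the median, the 5 per control that differ from it by most while within 0.25 log2 units of the other, and up to 4 members of each list. Other members define their list. Placeholder, LOC, LINC, MIR, SNOR, Y-linked and olfactory receptor symbols were passed over, except in the count of 16. The comparison, lists and rules were chosen with earlier results of these data known. Alternatives were other scalings, filters, cluster rules and priors, other sets of arrays, and the replicate number as a block. Promoters came from RefSeq, build GRCh38.p14. Figures were drawn with matplotlib 3.10.9.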

Additional observations from a re-analysis of the deposited data

How the results depend on the processing

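With so few arrays the calls moved with single libraries and with the fit. Against both controls the count of genes past an adjusted p of 0.05 (1 in the reported limma fit) was 0 with a robust prior, 0 on only the groups compared, 0 with the replicate number as a block, and 0 to 3952 when arrays were left out in turn; the highest came without scramble control 2. The unadjusted count of 1827 was 1114 on only the groups compared, 1275 with the block (1004 higher, 271 lower) and 778 to 7124 with an array left out. Against control 1 alone the adjusted count of 3952 was 2540 after renewed quantile normalization, 0 on only the groups compared, 0 with the block, and 0 to 4133 with an array left out. Against control 2 alone it was 0 under every alternative run, and the unadjusted count of 1862 was 3286 on only the groups compared and 1235 to 2423 with an array left out. Replicate numbers did not pair the samples (the deviations of scramble control 1 and knockdown 1 correlated at -0.03). By the rule of size, quantile normalization gave 81 higher (74 shared) and 25 lower (13 shared) against both controls, and 880 higher and 780 lower against control 1. Leaving out an array gave 193 to 1950 higher and 30 to 397 lower against both, and 313 to 388 higher and 259 to 279 lower against control 2. Such a count by size can only stay or rise, because fewer arrays must then meet the rule. All 127 higher and 16 lower genes against both controls were kept each time. The split of unadjusted calls against both controls, 1291 higher to 536 lower, became 1029 to 914 after quantile normalization and 1103 to 705 with median centring; against control 1 the adjusted 2381 to 1571 became 1134 to 1406. CTBP2 ran from -1.71 to -1.27 with an array left out and passed the threshold without scramble control 2 (limma adjusted p = 0.0177). EMCN (0.033) and VWF (0.069), dim endothelial markers, reversed after quantile normalization. Of 37 list medians, 8 against both controls, 14 against control 1 and 8 against control 2 changed sign under it, the hypoxia, p53 and amino acid stress lists among those against both. The cause of these changes was not tested.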
